A study of Mus musculus with 5 samples.

Results

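The genes described here are 10 of antigen presentation, most of them of MHC class I: H2-K1, H2-D1, B2m, Tap1, Tap2, Tapbp, Psmb8, Psmb9, Nlrc5 and Cd74. They were found by symbol in the deposited tables. All 10 of 10 were found among the 52029 genes of the table shared by 4 libraries and in the table of the remaining library, and all 10 passed the low-count filter that left 15899 genes for testing. The samples were mouse hepatobiliary organoids, self-renewing epithelial cultures of wild-type primary liver stem/progenitor cells. The first group, organoids alone, was at passage 1 and day 10 (libraries M11 and M12). The second, organoids co-cultured with liver endothelial cells (LiECs), was at passage 8 and day 10 (libraries M9 and M10, and the third co-culture library, with a table of its own). Both groups grew in the same medium, whose listed additions include EGF and the ROCK inhibitor Y-27632 and no interferon. Passage and co-culture cannot be told apart in this design. The question behind the comparison was through which signals endothelial cells act on the survival and growth of the progenitors.

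Class I molecules show short peptides from a cell's own proteins to CD8 T cells, and nearly every nucleated cell makes them. Proteasomes cut the peptides, the TAP transporter carries them into the endoplasmic reticulum, and a loading complex fits them into a heavy chain paired with beta-2-microglobulin. Interferon raises most of these genes, and NLRC5 is the transcriptional co-activator of the class I genes. CD74, the invariant chain, belongs to class II presentation, which is normally the work of dendritic cells, macrophages and B cells, and is shown here beside the class I genes.

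The libraries held 26466739 (M11), 29195328 (M12), 33881617 (M9), 35878241 (M10) and 58853737 (the third co-culture library) counts, and the values of Psmb8, Psmb9, Nlrc5 and Cd74 rest on at most 122 of them per library. Nothing in the labels ties the libraries to separate cultures. The p-values therefore reflect how far these particular libraries differ, and whether that spread is technical or between cultures was not tested. Chi-square per degree of freedom over genes was 37.1 between M11 and M12 and 103.2 between M9 and M10, larger than read sampling alone gives. These are bulk samples, in which fewer cells of a type and less RNA per cell cannot be told apart. The third co-culture library stood apart from the other 4, with its own table and 5.9% of counts from mitochondrial genes against 2.1% to 2.6%, so its values are given separately. The part of this difference in its values was not tested.

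In M9 and M10, 9 of the 10 genes had lower fitted levels than in the organoids alone and only Cd74 had a higher one. The quasi-likelihood test of edgeR, adjusted over all genes by the Benjamini-Hochberg method, called 0 of the 10, and 3 had an unadjusted p under 0.05 (B2m, Psmb8 and Nlrc5), as had 17.5% of all tested genes. Over all tested genes it called 2.24% in either direction and 1.25% as lower in co-culture, so a count of 0 among 10 is near that background. On the same libraries limma-voom called 0 of the 10 against 1.81% of all genes, and DESeq2 called B2m and Psmb8 lower against 4.46% of all genes. The median log2 fold change of the 10 was -0.35, and that of all tested genes was 0. CPM (counts over the TMM-scaled library size) of both co-culture libraries lay below both libraries alone for 6 of the 10 genes, an arrangement found for 25.1% of all tested genes. Only for Cd74 did they lie above (24.3% of all genes), and for H2-K1, Tapbp and Psmb9 the groups overlapped.

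**Figure D1:**
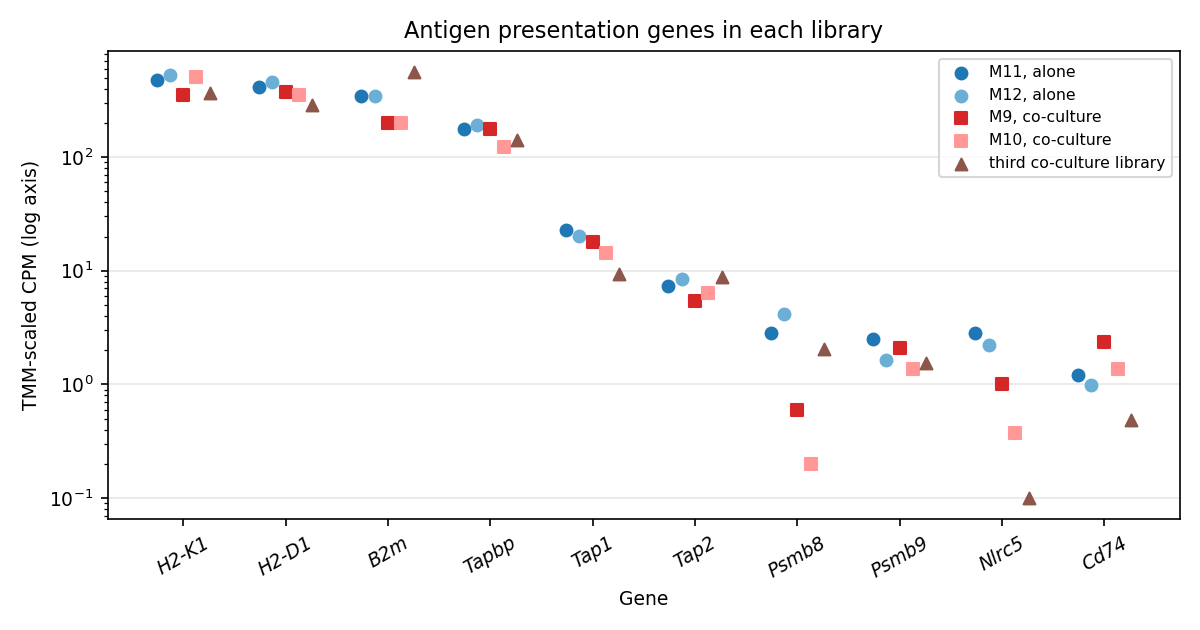
CPM of the 10 genes (log axis) in the libraries of organoids alone (blue circles), in co-culture libraries M9 and M10 (red squares) and in the third co-culture library (brown triangles, scaled over all 5 libraries; the others over the 4 of the shared table). B2m is near 200 CPM for M9 and M10, near 343 CPM alone, against 559 CPM in the third co-culture library. For Psmb8 and Nlrc5 the points of M9 and M10 lie below those alone. In the third library Psmb8 (2.05 CPM) is near M11 (2.83 CPM), and Nlrc5 (0.101 CPM) is the lowest of the 5.

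The heavy chains and the light chain of the class I molecule come first. H2-K1 encodes the heavy chain H-2K; its gene (ENSMUSG00000061232, protein coding) lies on the minus strand of chromosome 17 from 33996017 to 34000347 in GRCm38. It stood at 479 CPM in M11, 526 in M12, 348 in M9 and 506 in M10. M10 lay between the libraries alone and M9 below them, so the groups overlapped and the log2 fold change was -0.23 ± 0.21 (SE, n = 2 each; adjusted p = 0.648, edgeR). Its 95% interval (for 1 gene, not adjusted) ran from -0.76 to 0.29, and the fold change was 0.02 without M9. H2-D1, the heavy chain H-2D (ENSMUSG00000073411, chromosome 17, plus strand, 35262730 to 35267499), was at 416, 461, 372 and 354 CPM in M11, M12, M9 and M10. Both co-culture values lay under both values alone, by a log2 fold change of -0.27 ± 0.15 (adjusted p = 0.422, edgeR; interval -0.63 to 0.09).

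B2m encodes beta-2-microglobulin, the light chain that every class I heavy chain needs to fold and reach the surface. The gene (ENSMUSG00000060802) is on chromosome 2 (plus strand, 122147686 to 122153083). Its level was 342 CPM in M11 and 344 CPM in M12, against 199 and 201 CPM for M9 and M10. The gap between the groups was far wider than that between the libraries of a group, 343 ± 1.63 against 200 ± 1.63 CPM (SD, n = 2 each), and the log2 fold change was -0.78 ± 0.14 (interval -1.12 to -0.44). With adjustment over all genes it missed the threshold in edgeR (adjusted p = 0.0559) and in limma-voom (adjusted p = 0.0571) and passed in DESeq2 (adjusted p = 0.00037). In each fit that left out 1 library it stayed between -0.79 and -0.76, with adjusted p-values from 0.0124 to 0.42.

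The third co-culture library went against M9 and M10 for B2m. Scaled with the other 4, it held 559 CPM against 353 and 354 CPM in the libraries alone, a log2 difference of 0.66 from their mean, with no test because the library has no replicate in its table. For the heavy chains it was below both libraries alone, with H2-K1 at 364 CPM (-0.51), unlike M10, and H2-D1 at 285 CPM (-0.66). With all 5 libraries in 1 fit the B2m fold change was -0.13 (adjusted p = 0.941, edgeR). This table lists RefSeq genes and the shared one Ensembl genes. Levels set across them may therefore also carry a difference in annotation, whose part was not tested. B2m's proportion to the heavy chains can be read within each library from counts divided by the length of the principal transcript. Per base, B2m had 80.6% of the counts of H2-K1 and H2-D1 together in M11 and 73.6% in M12, against 58.9% (M9), 48.6% (M10) and 180.0% for the third co-culture library. This ratio was chosen after the values were seen, and it put M9 and M10 below, and the third library above, both libraries alone. With the length of all annotated exons the ratio was 123.0% and 112.0% alone, 87.9% (M9), 75.4% (M10) and 277.0% (the third library), so whether B2m exceeds the heavy chains depends on the length used, and the order of the groups does not.

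The DNA upstream of these 3 genes is shown because they are the textbook targets of the same set of factors: NF-kappa B, interferon regulatory factors, and the complex of RFX, CREB or ATF, and NF-Y on which NLRC5 acts. Sequences are from RefSeq (GRCm38.p6), 5′ to 3′ on the gene's strand. Capitals mark matches to 4 motifs sought on both strands: the kappa B consensus, the interferon regulatory factor core AANNGAAA, the CREB core TGACG, and CCAAT, which reads ATTGG on the other strand and is the NF-Y site. The H2-K1 stretch covers chr17:34000348-34000467 (minus strand), up to the base before the more upstream of 2 RefSeq transcription starts, and the B2m stretch chr2:122147547-122147685 (plus strand), ending at position -2 from its start:
H2-K1: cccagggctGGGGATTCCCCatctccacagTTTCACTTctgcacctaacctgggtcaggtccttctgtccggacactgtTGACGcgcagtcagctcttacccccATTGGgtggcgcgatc
B2m: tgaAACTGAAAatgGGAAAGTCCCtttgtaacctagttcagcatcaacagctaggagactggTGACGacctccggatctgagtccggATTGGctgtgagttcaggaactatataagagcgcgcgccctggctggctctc

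In both genes the order from the far end is a pair of kappa B and AANNGAAA matches, then TGACG, then ATTGG, but the first pair stands in opposite order: kappa B before AANNGAAA in H2-K1 and after it in B2m. H2-D1 has the same pair as H2-K1, in a stretch of 30 bases (chr17:35262923-35262952) that differs from that of H2-K1 (chr17:34000429-34000458) by 1 base, A18T, counted from the first base of H2-K1's stretch:
H2-K1: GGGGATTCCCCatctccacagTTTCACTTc
H2-D1: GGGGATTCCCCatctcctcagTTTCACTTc

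In all 3 genes TGACG was followed by ATTGG after exactly 20 bases (chr17:34000359-34000388 in H2-K1, chr17:35262993-35263022 in H2-D1, chr2:122147609-122147638 in B2m):
H2-K1: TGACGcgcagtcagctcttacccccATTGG
H2-D1: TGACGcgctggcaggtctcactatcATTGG
B2m: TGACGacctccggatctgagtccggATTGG

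H2-K1 and H2-D1 shared 23 of these 30 bases, and B2m shared 13 with H2-K1 and 12 with H2-D1. These counts include all bases of TGACG and ATTGG, which the search required, so they do not measure conservation between the motifs. A TGACG followed by ATTGG after 15 to 25 bases, on either strand, occurred in 143 of 32544 RefSeq promoter windows of 300 bases (0.439%). Alone, kappa B matched 4.53% of those windows, AANNGAAA 23.9%, TGACG 20.9% and CCAAT 37.4%. Among the other members searched, Tap1 and Psmb9 held TGACG and CCAAT without that spacing, Tapbp held CCAAT, and the Psmb8 window held none of the 4 motifs. Tap2 and Nlrc5 had no window in the set used, and Cd74, on chromosome 18, was left out of the search. These are matches of letters and do not show that a factor binds. The 3 genes with the spaced pair did not have the same values: B2m was at -0.78 in M9 and M10 and 0.66 in the third library, and the heavy chains were between -0.23 and -0.66 in both.

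**Figure D2:**
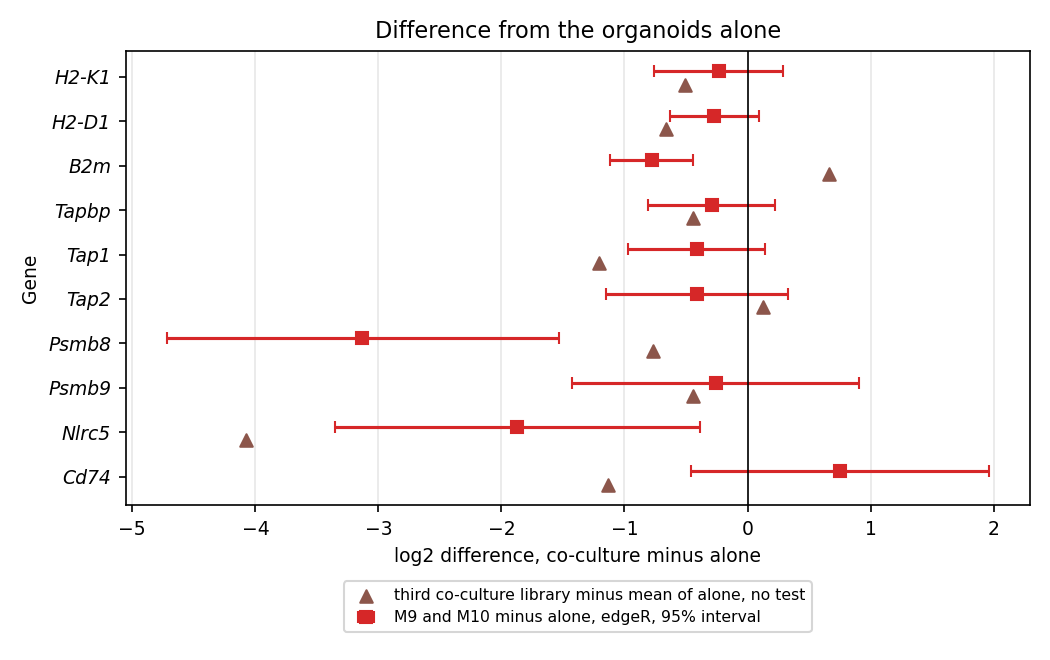
Log2 difference from the organoids alone for each gene: red squares, the edgeR fold change of M9 and M10 with its 95% interval (for 1 gene, not adjusted); brown triangles, the third co-culture library against the mean of M11 and M12, with no test. The intervals of B2m, Psmb8 and Nlrc5 lie below 0, and the triangle of B2m lies on the other side of 0 from its square.

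Peptides are cut by proteasomes, and interferon exchanges 3 catalytic subunits of the constitutive particle for inducible ones: Psmb8 takes the place of Psmb5, Psmb9 that of Psmb6 and Psmb10 that of Psmb7. Psmb8 (ENSMUSG00000024338, chromosome 17, plus strand, 34197721 to 34201454) had the lowest fold change of the 10 genes. It had 77 (M11), 121 (M12), 20 (M9) and 7 (M10) counts, or 2.83, 4.15, 0.594 and 0.20 CPM. The groups did not overlap, and the log2 fold change was -3.13 ± 0.65 (adjusted p = 0.0793, edgeR; interval -4.72 to -1.53). DESeq2 gave -3.14 with an adjusted p = 0.000716, and limma-voom an adjusted p = 0.0749. The fold change ran from -4.09 without M9 to -2.54 without M10, both with adjusted p under the threshold (0.00249 and 0.0257, edgeR), while without M11 or M12 the adjusted p was 0.238 and 0.42. In the third co-culture library Psmb8 had 122 counts, or 2.05 CPM, which is below the 2.92 and 4.26 CPM of M11 and M12 on the same scale (-0.77) and well above M9 and M10.

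Psmb9 (ENSMUSG00000096727, chromosome 17, minus strand, 34181987 to 34187764) showed no such gap. It had 68 and 48 counts alone and 70 and 48 in M9 and M10, with a log2 fold change of -0.26 ± 0.48 (adjusted p = 0.838, edgeR; interval -1.43 to 0.91). The third library, at 1.53 CPM, was just below M12 at 1.69 CPM. Psmb10, the third inducible subunit, varied more within groups than between them, at 10.7, 15.1, 16.3 and 6.2 CPM in M11, M12, M9 and M10 (-0.19 ± 0.48, adjusted p = 0.885, edgeR). The constitutive subunits were at -0.31 ± 0.14 (Psmb5), -0.15 ± 0.17 (Psmb6) and -0.21 ± 0.17 (Psmb7), with adjusted p of 0.344, 0.719 and 0.618. A list of 11 proteasome genes held Psmb5, Psmb6, Psmb7 and subunits that are not exchanged. Of the 11, edgeR called 0 (0 at an unadjusted p under 0.05, median -0.18). The most abundant by mean CPM over M11, M12, M9 and M10 were Psmd2 of the regulatory particle and Psmb4 of the core. Psmd2 was at -0.11 ± 0.17 (adjusted p = 0.799, edgeR) and Psmb4 at -0.16 ± 0.18 (adjusted p = 0.716, edgeR).

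Within a library, inducible and constitutive subunits can be set against each other as counts per base of the principal transcript. Per base, Psmb8 had 1.16% of the counts of Psmb5 in M11 and 1.59% in M12, against 0.294% (M9), 0.0974% (M10) and 1.57% for the third co-culture library. The third library thus lay between the libraries alone, and M9 and M10 below them. In the third library both terms of this ratio were below the libraries alone, Psmb5 at 72.2 CPM (-0.99) and Psmb8 at 2.05 CPM (-0.77). All 11 listed proteasome genes other than the inducible subunits were below the mean of the libraries alone there (median -0.42), against 7316 of all 14301 genes compared. Psmb9 was at 1.47%, 0.854%, 1.18%, 0.921% and 1.05% of Psmb6 in M11, M12, M9, M10 and the third library, with the groups overlapping. Psmb10 was at 8.99%, 12.4%, 13.9%, 6.81% and 15.4% of Psmb7, so of the 3 inducible subunits it was the one nearest to its constitutive counterpart in all 5 libraries. With the length of all annotated exons in place of the principal transcript, Psmb8 was at 0.561% and 0.764% of Psmb5 alone, against 0.142% and 0.0469% in M9 and M10, the same order of the groups at a lower level.

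**Figure D3:**
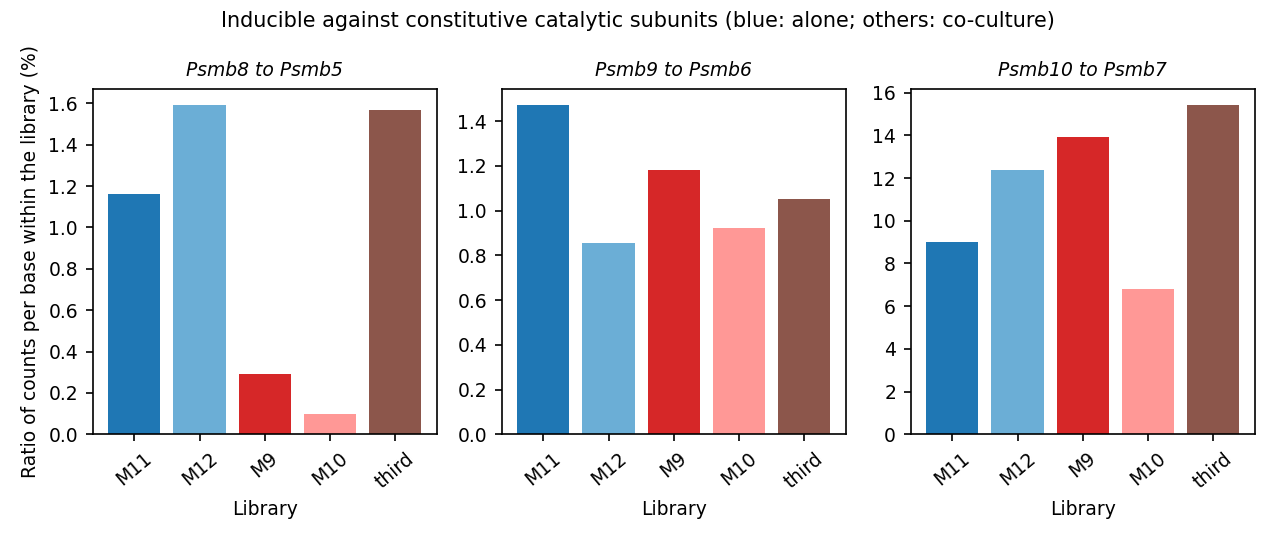
Counts per base of each inducible catalytic subunit as a percentage of those of its constitutive counterpart, 1 bar per library (blue alone, others co-culture; axes start at 0 and differ between panels). For Psmb8 to Psmb5 the bars of M9 (0.294%) and M10 (0.0974%) are lower than those of M11 (1.16%) and M12 (1.59%), and the third library (1.57%) lies between M11 and M12. For the other ratios M9 and M10 overlap the libraries alone.

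The transporter and the loading complex had small differences. Tap1 and Tap2 form the peptide transporter. Tap1 (ENSMUSG00000037321, chromosome 17, plus strand, 34187553 to 34197225) stood at 22.6 and 20.1 CPM alone, against 17.8 and 14.3 CPM for M9 and M10, without overlap (-0.41 ± 0.22, adjusted p = 0.428, edgeR; interval -0.97 to 0.14). It was lower still in the third library, at 9.44 CPM (-1.21). Tap2 (ENSMUSG00000024339, chromosome 17, plus strand, 34203527 to 34216321) was at 7.27 and 8.44 CPM alone, against 5.37 and 6.43 CPM for M9 and M10 (-0.41 ± 0.30, adjusted p = 0.558, edgeR; interval -1.15 to 0.33). In the third library it was at 8.83 CPM, just over the 7.5 and 8.67 CPM of M11 and M12. Per base, Tap1 exceeded Tap2 in all 5 libraries, at 363.0%, 278.0%, 386.0% and 259.0% of Tap2 in M11, M12, M9 and M10 and at 125.0% in the third; with the length of all annotated exons the third library was at 73.8%. Tapbp, which encodes tapasin, the bridge between transporter and heavy chain (ENSMUSG00000024308, chromosome 17, plus strand, 33915899 to 33929292), had 177 and 192 CPM alone and 177 and 123 CPM for M9 and M10. M9 was level with M11 and only M10 was below both libraries alone (-0.29 ± 0.21, adjusted p = 0.549, edgeR; interval -0.81 to 0.22), and without M9 the fold change was -0.57 (adjusted p = 0.0476, edgeR). The third library held 140 CPM (-0.44).

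Psmb9, Tap1, Psmb8 and Tap2 are neighbours within 34.3 kb of chromosome 17, in that order, with 495 bases between Tap1 and Psmb8 and 2072 between Psmb8 and Tap2. Psmb8, in the middle, was at -3.13, and the other three were between -0.41 and -0.26 with intervals that include 0. The difference between Psmb8 and its neighbours was not tested. Annotated exons of neighbours overlap here, and the use of strand in counting is not given. Psmb9 and Tap1 share 212 exon bases on opposite strands. Tapbp, elsewhere on chromosome 17, shares 904 exon bases (24.9%) with the antisense gene Gm19412, which had 12 to 40 counts, and 149 with Zbtb22 on its own strand, which had 1253 to 1884. The antisense gene Gm20496 covers 14.7% of the exon bases of Psmb8 and had 0 counts in each of the 4 libraries.

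**Figure D4:**
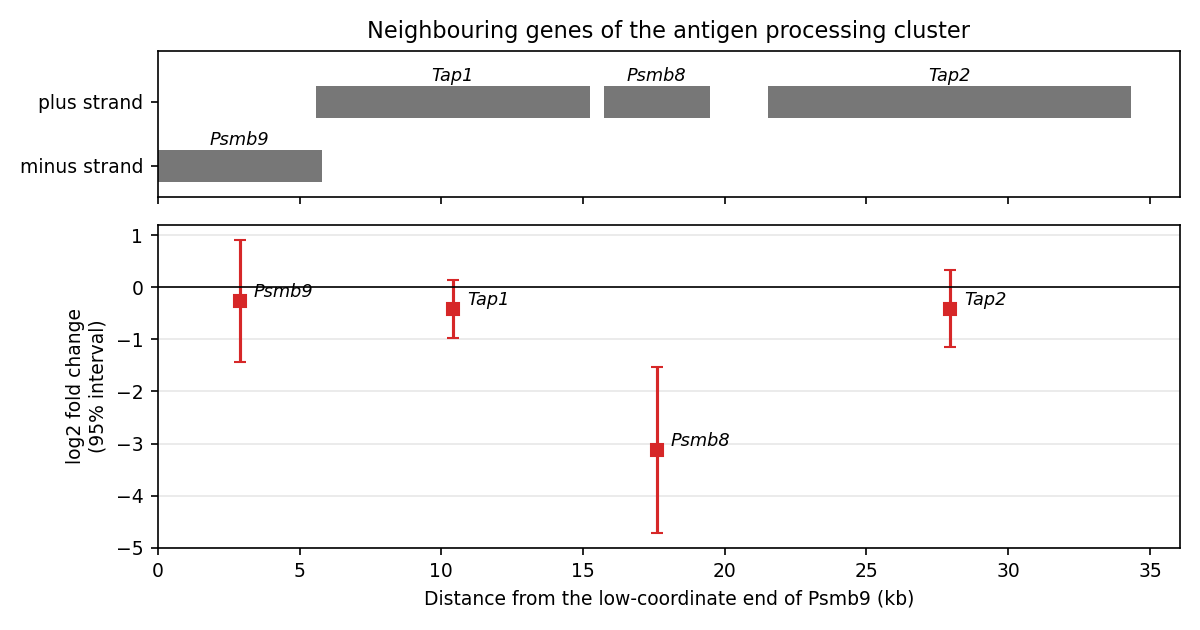
Top, the positions and strands of Psmb9, Tap1, Psmb8 and Tap2 by distance from the low-coordinate end of Psmb9 (kb); bottom, the log2 fold change of M9 and M10 against the organoids alone with its 95% interval (for 1 gene, not adjusted). Psmb8 lies at -3.13 and the 3 neighbours between -0.41 and -0.26.

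Nlrc5, the co-activator (ENSMUSG00000074151, chromosome 8, plus strand, 94434356 to 94527272), was scarce throughout. It had 77 and 65 counts alone and 34 (M9) and 13 (M10) in co-culture, or 2.83, 2.23, 1.01 and 0.371 CPM. Both co-culture libraries were below both libraries alone (-1.87 ± 0.60, adjusted p = 0.197, edgeR; interval -3.35 to -0.39), and without M9 the fold change was -2.74 (adjusted p = 0.0145, edgeR). The third co-culture library was the lowest of the 5, with 6 counts in 58853737, 0.101 CPM and a log2 difference of -4.08. The fold change ran from -2.74 to -1.32 when 1 of the 4 was left out. In the authors' deposited FPKM, which give no other value here, Nlrc5 in M9 stood above both libraries alone, so its direction in M9 depends on the measure.

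Cd74 (ENSMUSG00000024610, chromosome 18, plus strand, 60803848 to 60812652) was at 33, 29, 79 and 48 counts, or 1.21, 0.995, 2.35 and 1.37 CPM, in M11, M12, M9 and M10. Both co-culture values were above both values alone, but the log2 fold change of 0.75 ± 0.49 did not pass (adjusted p = 0.513, edgeR; interval -0.46 to 1.96). The third library, with 29 counts and 0.487 CPM, lay below all 4 others (-1.13). The class II chains and Ciita were at or near 0. H2-Aa, an alpha chain of class II, had 0 counts in all 5 libraries, H2-Ab1, its beta chain, 0 to 4, H2-Eb1 1 to 8, and Ciita, the class II co-activator, 3 to 9. Of 15 class II genes 5 were tested and edgeR called 0 (1 at an unadjusted p under 0.05). That gene was Ctsl, a lysosomal protease, which stood at 596 CPM in both libraries alone, against 343 and 349 CPM for M9 and M10 (-0.79 ± 0.14, adjusted p = 0.0555, edgeR) and at 151 CPM in the third library. H2-DMa, a chain of the class II peptide editor, had 77 and 116 counts alone, 57 (M9) and 93 (M10) in co-culture and 311 in the third library (-0.64 ± 0.44, adjusted p = 0.533, edgeR). Ifi30, a lysosomal thiol reductase, was at -0.29 ± 0.22 (adjusted p = 0.589, edgeR).

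Ordered by CPM per kilobase of principal transcript, B2m, H2-K1 and H2-D1 led in all 5 libraries, followed by Tapbp and Tap1. B2m came first in M11, M12, M9 and the third library and H2-K1 in M10, where they stood at 234.0 and 313.0 CPM per kilobase. Tapbp followed at 42.4 to 66.3 and Tap1 at 3.2 to 7.65 CPM per kilobase, without overlap between them. Nlrc5 was the lowest in every library, at 0.0133 to 0.373. The places of Tap2, Psmb8, Psmb9 and Cd74, between 0.123 and 2.57 CPM per kilobase, changed from library to library. Across the 10 genes the third library lay below both libraries alone for 8, against 46.0% of all 14301 genes compared, and above both for B2m and Tap2, against 43.0%. Since M11 and M12 serve both comparisons, the 2 sets of values are not independent. Only H2-D1, Tap1, Psmb8 and Nlrc5 lay below both libraries alone in each of M9, M10 and the third library, 4 of the 10 against 16.9% of the 14301 genes.

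The wider pathway was described with lists of genes, each by its counts in edgeR's test over all genes. Over all 15899 genes tested, 158 rose and 198 fell, and 17.5% had an unadjusted p under 0.05. The median was 0, and 7938 had a negative fold change. Of 20 further genes of class I and class I-like heavy chains listed, 13 were tested, 0 were called (4 at an unadjusted p under 0.05) and the median was 0.01. H2-Q4, a nonclassical heavy chain, was at 20 and 26 CPM alone and 11 and 9.83 CPM for M9 and M10, or a log2 fold change of -1.14 ± 0.24 (adjusted p = 0.0815, edgeR), and at 15.5 CPM in the third library. H2-T23, the nonclassical chain Qa-1, was at 0.25 ± 0.18 (adjusted p = 0.554) and H2-M3, which presents formylated peptides, at 0.41 ± 0.48 (adjusted p = 0.737). H2-T22 was at 0.05 ± 0.19 (adjusted p = 0.922). Heavy chain genes are close copies of each other, so reads can be divided between them differently in different tables. H2-Q1 had 0 to 2 counts in the 4 libraries of the shared table and 168 in the third library, and H2-T24 had 69 to 100 and 0. Whether that lies in the counting or in the library was not tested, and values of single heavy chain genes, H2-K1 and H2-D1 included, are uncertain. The labels give no mouse strain, and how reads of other H2 alleles would be counted was not tested.

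Of 19 genes of peptide supply and loading, edgeR called 0 (2 at an unadjusted p under 0.05), 15 had a negative fold change and the median was -0.15. Calr, the chaperone calreticulin of the loading complex, was at 772 and 801 CPM alone and 601 and 605 CPM for M9 and M10 (-0.38 ± 0.14, adjusted p = 0.241, edgeR). Canx, calnexin, which holds new heavy chains, was at -0.27 ± 0.15 (adjusted p = 0.429), and Pdia3, the oxidoreductase bound to tapasin, at -0.26 ± 0.14 (adjusted p = 0.435). Erap1, which trims peptides in the endoplasmic reticulum, was far from equal in M9 (38.0 CPM) and M10 (11.7 CPM), while the libraries alone held 31.7 and 32.9 CPM. Its log2 fold change was -0.38 ± 0.52 (adjusted p = 0.777, edgeR), and -1.46 (adjusted p = 0.0017) without M9 and 0.24 without M10. Psme1 and Psme2, the interferon-inducible proteasome activator, were at -0.29 ± 0.16 (adjusted p = 0.448) and -0.15 ± 0.23 (adjusted p = 0.814), and Tapbpl, a peptide editor related to tapasin, at -0.32 ± 0.38 (adjusted p = 0.737).

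**Figure D5:**
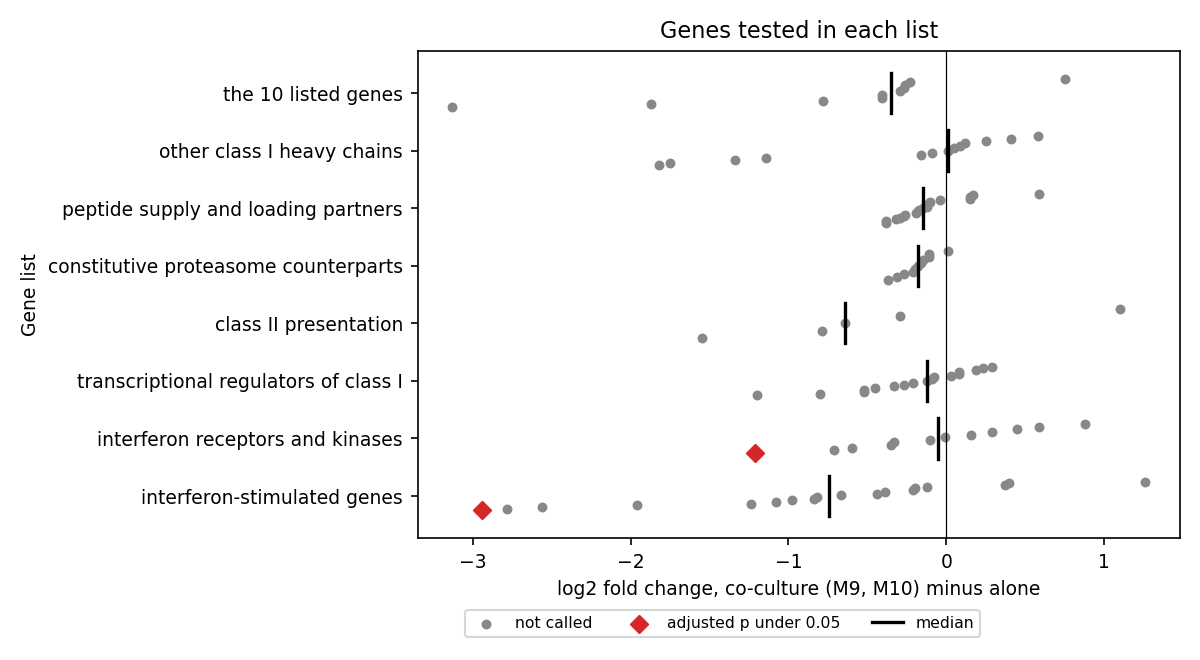
Log2 fold changes of M9 and M10 against the organoids alone for the tested genes of each list: grey points did not pass, red diamonds passed at an adjusted p under 0.05 (edgeR), and black bars are medians. The 10 listed genes have a median of -0.35, other class I heavy chains 0.01 and interferon-stimulated genes -0.75.

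Among 17 transcription factors that act on class I genes, edgeR called 0 (1 at an unadjusted p under 0.05; median -0.12). Irf1, the interferon regulatory factor most tied to class I, was at 0.08 ± 0.20 (adjusted p = 0.894), and its 71.6 CPM in the third library were above the other 4 (36.8 to 47.5 CPM). Rfx5, a DNA-binding partner of NLRC5, was at -0.27 ± 0.18 (adjusted p = 0.522). The gene with the small unadjusted p was Nfkb1, a subunit of NF-kappa B, at -0.80 ± 0.24 (adjusted p = 0.171), and Nfkb2, its relative, was at -0.52 ± 0.28 (adjusted p = 0.431). Of 12 interferon receptor and kinase genes 1 fell and 0 rose (5 at an unadjusted p under 0.05; median -0.05). The gene that fell was Ifnar2, a chain of the type I interferon receptor, from 54.7 and 58.9 CPM to 27.1 and 21.9 CPM, a log2 fold change of -1.21 ± 0.19 (adjusted p = 0.0416, edgeR). The third library, at 59 CPM, was like the libraries alone for Ifnar2 (0.01), and without M11, without M12 or with all 5 libraries the call was lost (adjusted p = 0.21, 0.341 and 0.629, edgeR). Ifngr1, the ligand-binding chain of the interferon-gamma receptor, was at -0.01 ± 0.16 (adjusted p = 0.989).

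Of 18 interferon-stimulated genes tested, 1 fell and 0 rose (6 at an unadjusted p under 0.05), 15 had a negative fold change and the median was -0.75. Of all 15899 genes tested, 2.24% were called, 17.5% had an unadjusted p under 0.05 and 7938 had a negative fold change. The list's median in the third library was -1.14, against -0.02 for all 14301 genes compared there. Ifit2, an antiviral protein, fell from 6.32 and 4.49 CPM to 0.891 and 0.514 CPM, a log2 fold change of -2.94 ± 0.49 (adjusted p = 0.0483, edgeR), and stood at 2.52 CPM in the third library. Its call was lost without M11 (adjusted p = 0.262), without M12 (adjusted p = 0.238), with all 5 libraries (adjusted p = 0.497) and in limma-voom (adjusted p = 0.0524). Of 6 tested genes for ligands that T and NK cells read beside class I, edgeR called 0 (2 at an unadjusted p under 0.05; median -0.33). Lgals9, galectin-9, was at 0.59 ± 0.16 (adjusted p = 0.149, edgeR), and Ulbp1, an NKG2D ligand, at -0.18 ± 0.19 (adjusted p = 0.705). Cd274, which encodes PD-L1, was at 1.40 and 1.82 CPM alone, 0.831 and 1.46 CPM for M9 and M10 and 2.57 CPM in the third library (-0.49 ± 0.50, adjusted p = 0.694, edgeR).

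Markers of the cell types the cultures could hold were read in the same libraries. Biliary epithelial markers were abundant in all 5 libraries, with Epcam, an epithelial adhesion protein, at 517 to 713 CPM, and 2 of the 9 tested rose in M9 and M10 (Krt7 and Krt19). In the third library both were below the libraries alone, Krt7 at 819 CPM (-0.80) and Krt19 at 1280 CPM (-0.60). Fitted levels in M9 and M10 were higher than alone for 5 of the 9 biliary markers and lower for 4. Spp1, 1 of the lower ones, was at 2000 and 2730 CPM alone and 1100 and 635 CPM in M9 and M10. Its log2 fold change of -1.44 ± 0.31 did not pass (adjusted p = 0.0825, edgeR), and the third library held 2030 CPM (-0.25). Leukocyte and lymphocyte markers summed to 0.923 to 2.31 CPM over 12 genes, and Ptprc, the pan-leukocyte CD45, had 8, 3, 4, 3 and 0 counts in M11, M12, M9, M10 and the third library. The macrophage markers Adgre1 and Clec4f had 0 counts in all 5, while Cd14, which fell in M9 and M10, made up most of that list's sum of 663 and 588 CPM alone, 315 and 283 in M9 and M10 and 425 in the third library (2 of 4 tested genes fell, Cd14 and Lyz2). Other macrophage genes had positive fold changes in M9 and M10 that did not pass, Csf1r at 0.47 ± 0.28 (adjusted p = 0.463, edgeR) and Cd68 at 0.79 ± 0.35 (adjusted p = 0.324, edgeR). In the third library Csf1r was above both libraries alone (83.3 CPM, 1.43) and Cd68 below both (1.33 CPM, -1.32). Endothelial markers were scarce in all 5 libraries. The 14 genes summed to 9.29 and 9.16 CPM alone, 11.4 and 11.1 in M9 and M10 and 7.49 in the third library. Egfl7 made up most of that sum, at 6.68 and 7.27 CPM alone, 9.26 and 9.23 in M9 and M10 and 5.34 in the third library. Its log2 fold change was 0.41 ± 0.27 (adjusted p = 0.518, edgeR), and Pecam1 had 1, 2, 2, 2 and 10 counts. Mesenchymal markers did move with the groups: 9 genes summed to 26.2 and 80.9 CPM in M11 and M12 and to 1.81 and 2.89 CPM for M9 and M10, with 2 of 6 tested genes falling (Col3a1 and Rgs5), and to 8.11 CPM in the third library. These marker calls were themselves unstable in edgeR. Without M12, and with all 5 libraries, each of Krt7, Krt19, Cd14, Lyz2, Col3a1 and Rgs5 missed the threshold (adjusted p = 0.0983 to 0.27 and 0.263 to 0.70), and Lyz2 did so without any 1 library (0.076 to 0.145). Without M11 only Col3a1 kept its call, and Col3a1 lost it without M9 (0.167) or M10 (0.233). In limma-voom Lyz2 (0.109) and Col3a1 (0.0771) were not called. The part of mesenchymal or macrophage RNA in the differences of B2m, Psmb8 and Nlrc5 was not tested.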

How the data were processed

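The samples were 2 libraries of organoids alone and 3 of organoids with liver endothelial cells, grouped by their titles. Tools named in the submitters' processing notes are HISAT2 2.1.0, StringTie 2.1.3b, Bowtie2 2.3.4.1, Trimmomatic 0.38 and FastQC 0.11.7, and the builds mm10 and GRCh37, without their roles. Neither the counting tool nor its annotation or strand setting is given in the sources used. The authors deposited estimated counts by Ensembl gene for 4 libraries (per the file headers), and a separate table of whole-number counts by RefSeq gene for the third co-culture library. Of the shared table's 73925 rows, 1 was kept for each of 52029 genes. Its columns name a group and a library number and no title replicate, so 1 measure, the counts, was used, and 10 columns of TPM and FPKM in both tables give no value here. A comparison on FPKM made before they were set aside is mentioned only for the direction of Nlrc5 in M9. Levels per length, planned on FPKM, were therefore computed from counts and the length of the principal transcript in GENCODE M21. The column of the third library bears a number unlike that of its record, and the record was followed.

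Estimated counts were rounded and fitted with edgeR 4.0.16 (R 4.3.3; filterByExpr, TMM, quasi-likelihood test) in M11, M12, M9 and M10 only, over 15899 genes, with Benjamini-Hochberg adjustment and a threshold of 0.05. A standard error is the fold change over the square root of the F statistic. The third library was joined by symbol (30844 genes, 97.7% of its counts), scaled with the other 4 and given as a log2 difference with a prior count of 2 and no test, since the tables were made separately. Alternatives were other scaling factors, other filters, DESeq2 1.42.0, limma 3.58.1 (voom), leaving out each library, all 5 libraries in 1 fit and, chosen after seeing the data, the length of all annotated exons. On simulated data (15556 genes, 200 changed) the test recovered 12% of genes changed 2-fold, 90% of those changed 4-fold and 100% of those changed 8-fold. There were 13 false among 164 calls, and 2-fold differences mostly went uncalled in that simulation. The changed genes had mean counts above 50, and all counts were drawn at 1 common dispersion of 0.07. These shares therefore say little of genes near or under that count, such as Psmb8, Psmb9, Nlrc5 and Cd74. They also say little of genes whose spread in the data differs from that dispersion. B2m and H2-D1 had standard errors of 0.14 and 0.15, and Krt7, at 1.11 ± 0.15, was called. Coordinates are from GENCODE M21 (GRCm38). The members and lists were chosen with earlier results of these data known. The genes named are the 10 members, fixed partners (1 of them is not reported here), and of each list the called genes (up to 4) or, with none called, the 2 most abundant. H2-Q1, H2-Q6, H2-T24, Cd1d1, Fcgrt, H2-DMa, Epcam, Spp1, Csf1r, Cd68, Zbtb22, Cd14, Pecam1, Egfl7, Adgre1 and Clec4f were named for their values or as markers after these were seen.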

Additional observations from a re-analysis of the deposited data

How the results depend on the processing

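Scaling moved the median of all genes by at most 0.042 on the log2 scale and turned no sign among the named genes. The count of genes called, 356 in edgeR, was 1404 without the low-count filter, 1314 in DESeq2 and 2 with all 5 libraries, and ran from 0 (without M12) to 2619 (without M9) when 1 library was left out. Of the 10 class I genes 0 were called, but 1 with total counts, 2 without the filter, 2 in DESeq2 and 0 to 4 when 1 library was left out; the 4 without M9 were B2m, Psmb8, Nlrc5 and Tapbp. Of the pathway lists without the interferon-stimulated genes 1 gene was called, against 2 with total counts, 7 without the filter, 6 in DESeq2, 0 with all 5 libraries and 0 to 11 when 1 library was left out. Leaving out 1 library reversed some log2 fold changes, whose ranges over the 4 omissions were -0.52 (without M10) to 0.02 (without M9) for H2-K1, -0.58 (without M9) to 0.07 (without M11) for Psmb9 with 0.01 without M10, -1.04 (without M9) to 0.34 (without M10) for Psmb10 with 0.07 without M12, and -0.45 to 0.12 for Psme2. They were -1.46 to 0.24 for Erap1, -0.77 to 0.08 for Tapbpl with 0.03 without M10, -0.27 to 0.05 for Psmd2 and -0.34 to 0.01 for Psmb4. Irf1 ran from -0.09 to 0.27 (-0.01 without M9), H2-M3 from -0.09 to 0.79, H2-T22 from -0.02 to 0.14 (0 without M11) and Ifngr1 from -0.11 to 0.11 (0.07 without M9, and 0 without the filter). With all 5 libraries Erap1 was at 0.09, H2-T23 at -0.05 and H2-T22 at -0.05. The cause of these changes was not tested. A fit without a library of organoids alone, or without M9 or M10, leaves 1 library in a group and takes its spread from the other group. For B2m, Psmb8, Nlrc5, Tap1, Tap2, H2-D1 and Tapbp the fold change of M9 and M10 stayed negative in every alternative run on the counts; in the deposited FPKM Nlrc5 in M9 stood above both libraries alone. The length of all annotated exons moved the ratio of Psmb8 to Psmb5 from 1.38% to 0.662% in the libraries alone and that of Psmb10 to Psmb7 from 10.7% to 24.3%. The authors' per-length values, planned as an alternative, give no value here, since columns that name only a group were kept for 1 measure, the counts. No paired analysis was possible because the columns of the shared table carry library numbers and not the replicate numbers of the titles. At these depths Psmb8 and Nlrc5 had as few as 7 and 13 counts in M10, which limits the precision of their fold changes.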
